A study of Homo sapiens with 6 samples.

Results

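The nuclear genes of the oxidative phosphorylation complexes were compared between control and STBD1-depleted human colorectal cancer cells. The members were the protein-coding genes whose symbols begin with NDUFA, NDUFB, NDUFC, NDUFS or NDUFV followed by a digit, with UQCR, with COX4 to COX8 or with ATP5, plus CYC1. This rule took 86 of the 58395 genes listed in the files, and the other 179 genes with matching symbols were left out because they are not protein coding. The members comprised 36 genes of complex I, 10 of complex III, 19 of complex IV, 19 of complex V and 2 read-through genes that join a member to its neighbour. NDUFA4, a subunit now assigned to complex IV, and its paralog NDUFA4L2 were counted there, together with COX7A2L, which joins complexes III and IV. The rule uses names alone and no measured value.

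Oxidative phosphorylation couples the passage of electrons along the inner mitochondrial membrane to the synthesis of ATP. Complex I takes electrons from NADH, complex III passes them from ubiquinol to cytochrome c, complex IV passes them on to oxygen, and complex V makes ATP from the proton gradient that the others build. A few catalytic subunits of complexes I, III, IV and V are encoded in the mitochondrial genome, and the many others are nuclear genes whose proteins are imported, among them the small accessory subunits that surround each catalytic core. Colorectal cancer cells run this pathway beside glycolysis, and STBD1, the gene depleted in this study, encodes a glycogen-binding protein proposed to deliver glycogen to autophagy.

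HCT116 is an established line of human colorectal cancer cells. The 3 shControl samples carried a lentiviral non-target hairpin RNA and the 3 shSTBD1 samples carried a hairpin RNA against STBD1, with the same culture medium, and no other agent or allele is given for either group. The infected cells were drug-selected populations of 1 cell line, so a group stands for a selected population rather than a clone, and the labels name no second hairpin. The samples are described as biological replicates, and the p-values below measure the spread between these libraries. RNA was sequenced in 1 library per sample, with RSEM estimates that summed to between 17689097 and 21668274 expected counts, the estimated number of read pairs from each gene.

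STBD1 itself stood at 16.2, 15.7 and 14.4 CPM (counts scaled to the size of the library) in shControl and at 11.6, 9.06 and 9.18 in shSTBD1, a log2 fold change of -0.64 (SE 0.098, adjusted p = 0.000291 in edgeR's quasi-likelihood F-test, by the Benjamini-Hochberg method). The groups did not overlap, so the labels held for the targeted gene. Epithelial markers marked the cells as labelled: in TPM (abundance scaled for transcript length and to an equal total in each library), EPCAM lay between 169 and 183 and KRT8 between 1228 and 1485 in the 6 libraries, while CEACAM5 was listed at 0 and VIL1 reached no more than 0.21. The summed TPM of all 7 epithelial markers was 2850.0 to 2890.0 in shControl and 3240.0 to 3370.0 in shSTBD1. Of the markers of other cells, PTPRC, CD3E and MYH7 were listed at 0 in every library, and the leukocyte list, which was CD68 alone, summed to 6.5 to 7.83 in shControl and 10.8 to 12.0 in shSTBD1. The fibroblast list reached at most 20.7, nearly all of it COL1A1, and the endothelial and muscle lists stayed at or below 0.66. The part of these marker levels in the results below was not tested.

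Nuclear respiratory genes stood slightly higher in shSTBD1 than in shControl, and the differences were small. Of the 86 members, 79 held enough counts to be tested, and of these 29 were called higher in shSTBD1 and 0 lower at an adjusted p under 0.05 in the same edgeR test, with p-values adjusted over all 15566 tested genes. Among all tested genes, 8.22% were called higher and 7.54% lower. The called members were UQCRB, CYC1, UQCR10 and UQCRQ of complex III, 9 genes of complex IV, 9 of complex I, 6 of complex V and the read-through gene ATP5MF-PTCD1. At an unadjusted p under 0.05, 41 members were higher, beside 15.3% of all tested genes, and 1 was lower. No member passed an unadjusted p of 1e-5, which 2.38% of all tested genes passed in either direction. The log2 fold changes of the tested members ran from -0.078 to 0.63 with a median of 0.096, against 0.0023 for all tested genes, and 68 were above 0 and 11 below. Among the called members the median size was 0.19 on the log2 scale. More RNA per cell and more cells that hold the transcript cannot be told apart in these bulk samples.

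The groups' values, scaled as CPM by edgeR's TMM method, did not overlap for 36 members that were higher in shSTBD1, beside 17.4% of all tested genes, and for 1 that was lower, beside 16.3%. That gene was UQCRC1. Of the 29 called members, 27 had groups that did not overlap in CPM and 25 in TPM, which divides by the transcript length estimated in each library. In TPM, 26 members were separate and higher, beside 10.9% of all tested genes, and 0 were separate and lower, beside 13.5%. DESeq2 called 19 members higher, beside 7.12% of the 12246 genes to which it gave an adjusted p. The fit of limma on log2(TPM + 1) called 0 of 79 members, beside 1.14% of all tested genes called higher and 0.732% called lower. In it 61 members were above 0, among them the 29 called by edgeR, and 18 were below.

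**Figure D1:**
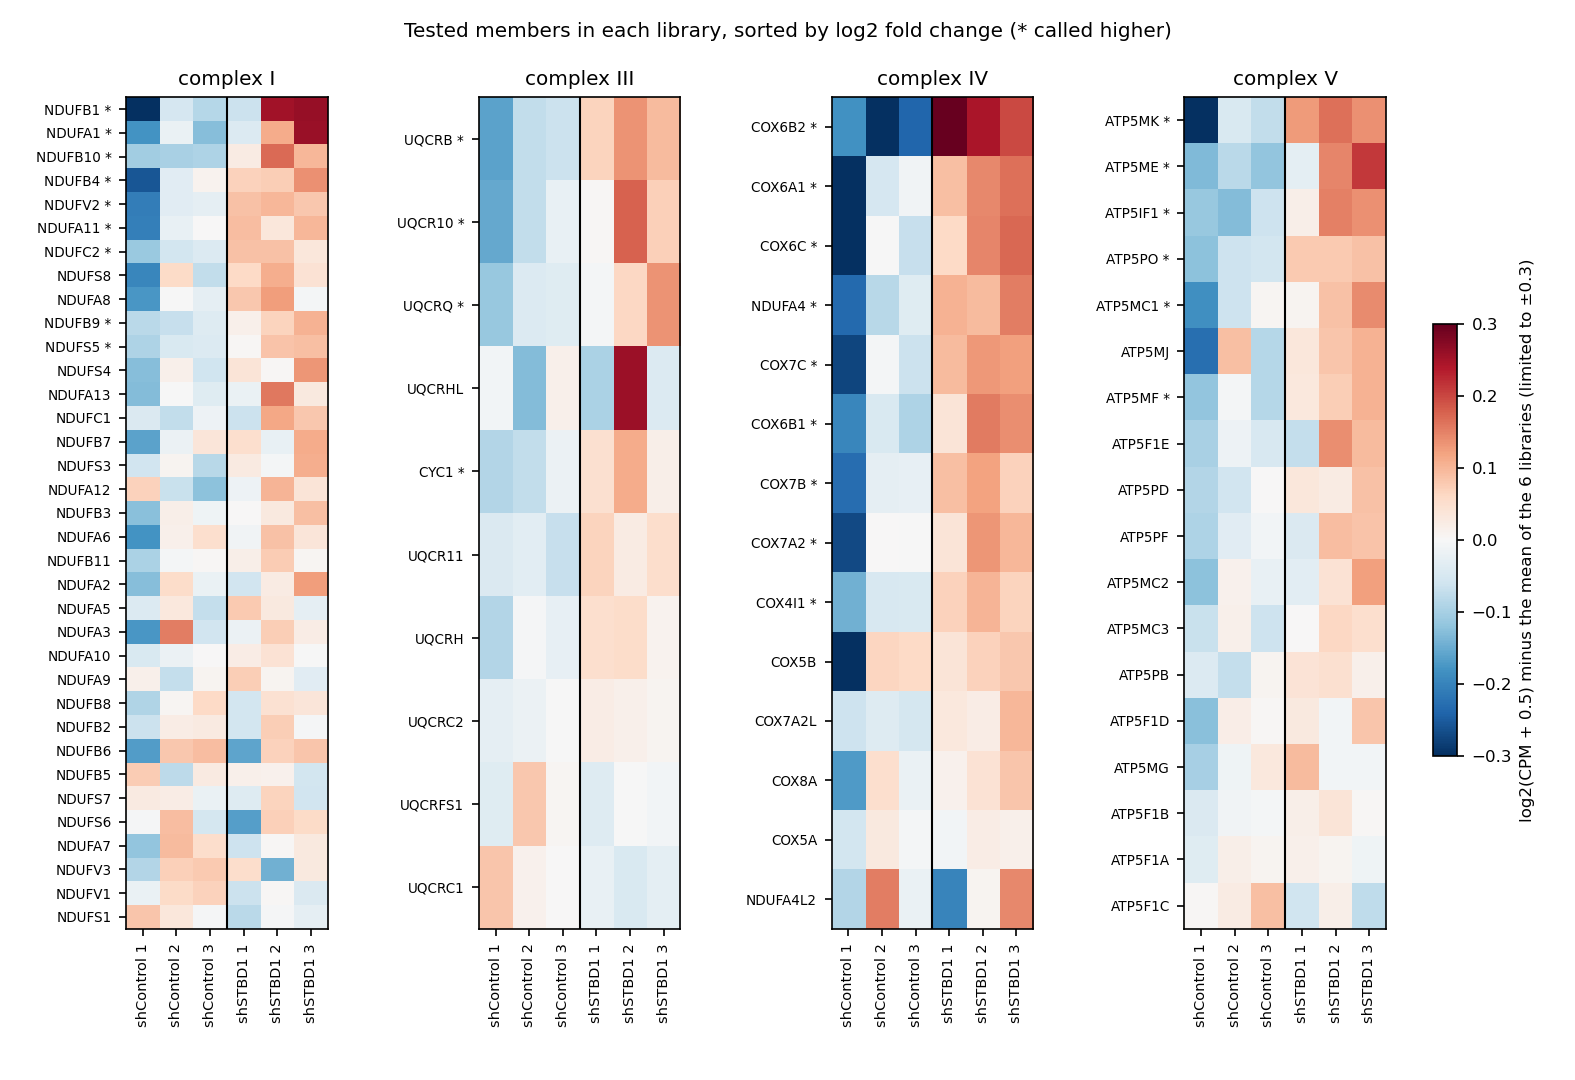
Tested members of complexes I, III, IV and V, except 1 of complex I (rows, sorted by log2 fold change) in each of the 6 libraries (columns). Colour gives log2(CPM + 0.5) minus the mean of the gene over the 6 libraries, limited to 0.3 on either side, and a star marks the members called higher. The column of shControl replicate 1 is blue in most rows, and shSTBD1 replicates 2 and 3 are red in most rows of complexes IV and V.

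One control library stood apart from the other 5 in these genes. shControl replicate 1 held the lowest CPM of the 6 libraries for 58 of the 79 tested members, beside 23.0% of all tested genes. The highest value fell in shSTBD1 replicate 2 for 29 members and in shSTBD1 replicate 3 for 28. The median deviation of the members from their mean over the libraries was -0.11 on the log2 scale in shControl replicate 1, -0.012 in replicate 2 and -0.022 in replicate 3, and 0.018, 0.070 and 0.082 in shSTBD1 replicates 1, 2 and 3. Every shSTBD1 library was thus above every shControl library in this median, with a gap of less than the distance between shControl replicates 1 and 3. Without shControl replicate 1, 20 members were called higher, beside 8.40% of all tested genes. Of the 79 tested members 62 were then above 0, among them the 29 called with that library, and 17 were below. One member, NDUFV1, was then called lower, beside 7.84%. The 10 members called with each library left out in turn were UQCRB, ATP5MK, ATP5PO, ATP5IF1, NDUFA4, COX4I1, COX6A1, COX6B1, COX7C and NDUFB10, and the other 19 all lost their call without shSTBD1 replicate 2. Leaving out shSTBD1 replicate 2 left 10 members called higher, beside 4.96%, and leaving out shSTBD1 replicate 3 left 15, beside 5.20%.

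Members with short transcripts made up most of the calls. The length used here is RSEM's transcript length for the gene, averaged over the libraries, and it ran from 352 to 3539 bases among the tested members with a median of 787. Of the 49 tested members under 1000 bases, 23 were called higher and 47 were above 0, with a median log2 fold change of 0.13. Of the 30 longer ones, 6 were called and 20 were above 0, with a median of 0.047. Pearson's r between log2 fold change and log2 length over the 79 members was -0.22, a description over genes that share the same 6 libraries.

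The same trend with length ran through all tested genes. In the shortest decile of tested genes, from 207 to 992 bases, the median log2 fold change was 0.077 and 12.8% were called higher and 1.35% lower. In the longest decile, of 4965 bases or more, the median was -0.045 and 5.65% were called higher and 16.4% lower. In shControl replicate 1 the median deviation from the mean of the 6 libraries went from -0.075 in the shortest decile to 0.060 in the longest. Within the shortest decile, the 49 members had a median of 0.13 with 23 called, and the other genes of that decile had a median of 0.074 with 11.7% called higher.

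Genes of similar length had a median shift close to that of the members. The band from 622 to 1185 bases, the lower and upper quartile of the members' lengths, held 1319 tested protein-coding genes that are not members. Their median log2 fold change was 0.075, 71.0% of them were above 0, 15.2% were called higher and 2.12% lower. The members' median exceeded that of the band by 0.021. In the medians of single libraries, members minus band was -0.015 ± 0.011 in shControl and 0.022 ± 0.026 in shSTBD1 (SD, n = 3), and the values of the groups overlapped. The band held 383 genes with at least 50.9 CPM, and of these 29.0% were called higher, with a median of 0.070. The members' share of calls, 36.7%, lay above that of the whole band and nearer to that of the band genes above this floor. The floor is not a match on abundance, and some members lie below it. Without shControl replicate 1, 25.3% of the members were called higher, beside 13.9% of the band and 29.0% of its genes above the floor. No test was made of these shares.

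With an offset in each library for the trend with gene length, 11 members (13.9%) were called higher, beside 7.88% of all tested genes, and 3 lower, beside 7.66%. In this fit 6.90% of the genes in the length band were called higher and 5.46% lower. Of the band genes with at least 50.9 CPM, 11.7% were called higher and 10.4% lower. The members' median log2 fold change was then 0.024. Of the 79 tested members 52 were above 0 and 27 below, beside 53.8% of the genes in the length band above 0. The 29 members called in the fit without offsets, chosen as higher in these same libraries, stayed above 0. The 11 still called were UQCRB, ATP5MK, ATP5PO, NDUFA4, COX6B1, COX7C, COX6A1, COX6C, COX7B, COX6B2 and ATP5MF-PTCD1. The 3 called lower were the core subunits NDUFV1, UQCRC1 and ATP5F1C. With the offsets and without shControl replicate 1, 14 members (17.7%) were called higher, beside 7.92%, and 2 lower, beside 7.37%, with a median of 0.027. There 15.7% of the band genes with at least 50.9 CPM were called higher and 11.2% lower. This last combination was chosen after the data had been seen.

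Complex IV, cytochrome c oxidase, held the largest share of called members. Of its 14 tested members, 9 were called higher, beside 8.22% of all tested genes, and 13 were above 0. Their median log2 fold change was 0.18. With length offsets 7 of the 14 were called, beside 7.88% of all tested genes called higher. Without shControl replicate 1 and in the fit that joined these changes 8 were called, beside 8.40% and 7.92%. The count was 5 without shSTBD1 replicate 2, beside 4.96%. It was 0 with effective length offsets and in limma on log2(TPM + 1), beside 1.85% and 1.14%. Without shSTBD1 replicate 1 it was 6, with no share of all tested genes taken. Summed over its genes, complex IV stood at 3716, 4569 and 4494 TPM in shControl and at 4740.3, 4796 and 4778 in shSTBD1. The group means of 4260.0 ± 473 and 4772 ± 28.5 (SD, n = 3) differed by 12.0%, and the groups did not overlap. Without shControl replicate 1, far below the other 2 controls, the difference was 5.30%.

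NDUFA4 (ENSG00000189043, chr7:10931943-10940153 on the minus strand of GRCh38) was first described as a part of complex I and later placed in complex IV. It stood at 72.2, 80.04 and 82.7 CPM in shControl and at 91.3, 90.7 and 94.6 in shSTBD1, so that every shSTBD1 library was above every shControl library. The log2 fold change was 0.24 (SE 0.046, adjusted p = 0.00228), and over 20 alternative analyses the adjusted p ran from 1.38e-06 to 0.198. Its transcript of 2060 bases is longer than those of most members, and with length offsets its log2 fold change was 0.23.

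COX6A1 (ENSG00000111775, chr12:120438090-120440737, plus strand) encodes the widely expressed isoform of subunit VIa. Its values were 126, 154 and 158 CPM in shControl and 169.5, 176 and 179 in shSTBD1. The log2 fold change was 0.26 (SE 0.059, adjusted p = 0.00641), and the adjusted p ran from 8.12e-11 to 0.237 over the alternatives. The low value of shControl replicate 1 carried part of this difference: without that library the log2 fold change was 0.17, and the member was still called.

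COX6B1 (ENSG00000126267, chr19:35648323-35658782, plus strand) encodes the subunit that bridges the monomers of the oxidase dimer on its intermembrane side. It was at 83.2, 92.4 and 89.5 CPM in shControl and at 98.1, 106 and 105 in shSTBD1, with a log2 fold change of 0.22 (SE 0.044, adjusted p = 0.00239). COX7C (ENSG00000127184, chr5:86617928-86620962, plus strand), a single-span membrane subunit, was at 154, 186 and 178 CPM in shControl and at 199, 204 and 203 in shSTBD1, with a log2 fold change of 0.23 (SE 0.050, adjusted p = 0.00539). In both genes the groups were separate, and shControl replicate 1 was the lowest library.

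COX6C, another membrane subunit, was at 96.6, 119.6 and 114 CPM in shControl and at 125, 133 and 135 in shSTBD1 (log2 fold change 0.25, SE 0.058, adjusted p = 0.00783). COX7B, a subunit needed for the assembly of the complex, was at 62.8, 72.2 and 72.4 CPM against 78.5, 80.1 and 77.2 (0.19, SE 0.050, adjusted p = 0.0178). COX6C was not called without shSTBD1 replicate 2, and COX7B was not called without shSTBD1 replicate 1 or 2. Without shControl replicate 1 the log2 fold changes of COX7C, COX6C and COX7B were 0.15, 0.16 and 0.12, and all were still called. COX4I1 (ENSG00000131143, chr16:85798633-85807068, plus strand), the largest nuclear subunit, had the highest TPM of the complex, with 840.1 ± 49.3 in shControl and 928 ± 19.9 in shSTBD1 (SD, n = 3). In CPM it was at 312, 333 and 333 against 361, 369 and 361, with a log2 fold change of 0.16 (SE 0.033, adjusted p = 0.00409), and with length offsets it was 0.077 and was not called.

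The subunits COX5A and COX5B, which attach to the catalytic core, did not pass the test. COX5A was at 86.3, 91.4 and 89.2 CPM in shControl and at 89.1, 90.99 and 90.6 in shSTBD1 (log2 fold change 0.021, SE 0.037, adjusted p = 0.759). COX5B was at 71.1, 92.4 and 92.1 CPM against 90.7, 92.6 and 93.3, with a log2 fold change of 0.12 (SE 0.070, adjusted p = 0.289). Its shControl replicate 1 alone lay apart from the other 5 libraries, and without that library the log2 fold change was -0.0015. COX8A, a small membrane subunit with 662 ± 73.0 TPM in shControl and 701 ± 6.26 in shSTBD1, did not pass the test either (log2 fold change 0.091, SE 0.046, adjusted p = 0.198).

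Paralogs of complex IV differed far more in level than between the groups. COX4I2, the isoform known from lung and low oxygen, the muscle isoform COX6A2 and the testis isoform COX7B2 were listed at 0 in all 6 libraries. COX7A1, the heart and muscle isoform, had between 0 and 3 expected counts per library, and COX8C had 4 in shSTBD1 replicate 1 and at most 1 elsewhere. COX7A2, the widely expressed partner of COX7A1, was at 81.6, 98.6 and 98.6 CPM in shControl and at 101, 108 and 106 in shSTBD1 (log2 fold change 0.18, SE 0.057, adjusted p = 0.0429), and was not called with length offsets or without shControl replicate 1, where the log2 fold change was 0.091. COX7A2L was at 53.3, 54.2 and 53.6 CPM against 56.9, 56.5 and 59.7 (0.10, SE 0.042, adjusted p = 0.112), and its groups did not overlap although it was not called. COX6B2, the testis isoform, was at 2.13, 1.82 and 2.03 CPM against 3.28, 3.04 and 2.93. Its log2 fold change of 0.63 (SE 0.19, adjusted p = 0.0318) was the largest of all tested members and rested on the fewest counts among those called, and it was called in only 1 of the 6 fits that leave out a library, the one without shControl replicate 1. NDUFA4L2, known as a target of hypoxia-inducible factors, stayed between 0.49 and 0.77 CPM, with overlapping groups.

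**Figure D2:**
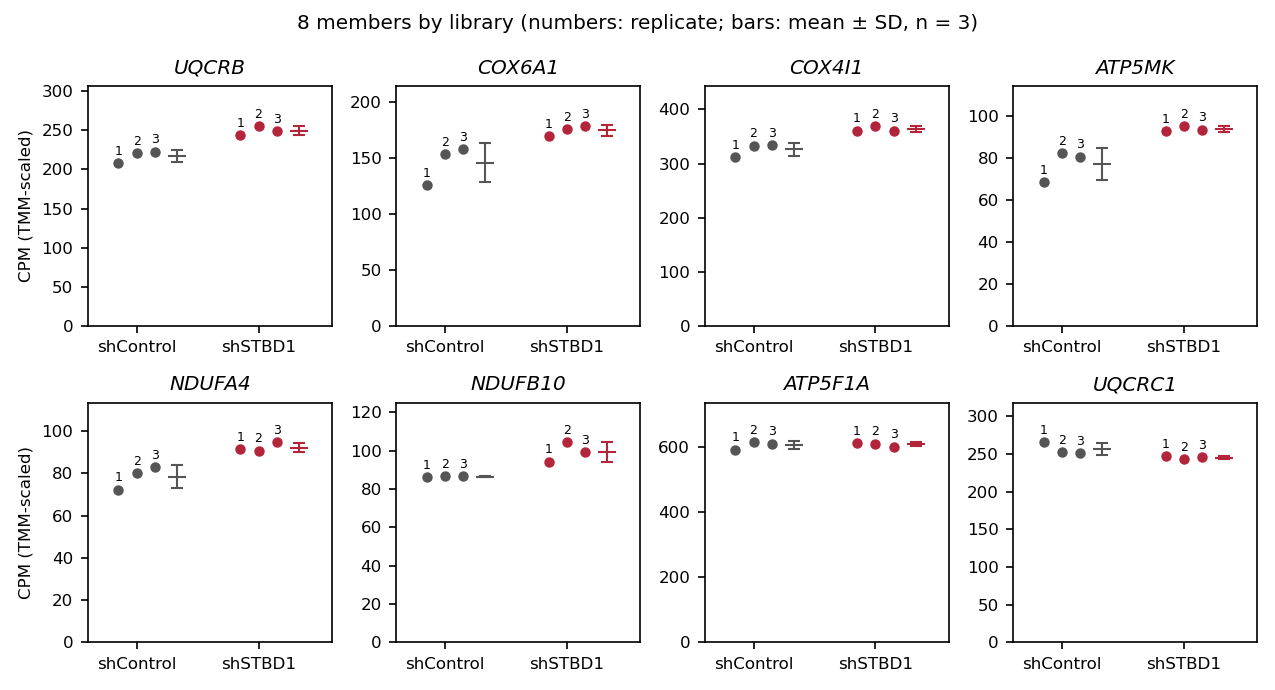
CPM after TMM scaling (vertical axis from 0) in the 3 shControl and 3 shSTBD1 libraries for 8 members, with the replicate number beside each point and the mean ± SD (n = 3) as a bar. UQCRB, COX6A1, COX4I1, ATP5MK, NDUFA4 and NDUFB10 are higher in every shSTBD1 library, the values of ATP5F1A overlap, and those of UQCRC1 are lower in every shSTBD1 library.

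Complex III, the cytochrome bc1 complex, had 4 of its 10 members called higher, beside 8.22% of all tested genes. Its median log2 fold change was 0.11. The count was 1 without shSTBD1 replicate 2 and 1 with length offsets, beside 4.96% and 7.88% of all tested genes called higher. It was 2 without shControl replicate 1 or without shSTBD1 replicate 3, beside 8.40% and 5.20%. With DESeq2 it was 2, beside 7.12% of the genes given an adjusted p. Without shControl replicate 2 it was 1, with no share of all tested genes taken. UQCRB (ENSG00000156467), which helps to form the ubiquinone site, had the smallest p of all members. It stood at 208, 221 and 223 CPM in shControl and at 244, 256 and 249 in shSTBD1, with a log2 fold change of 0.20 (SE 0.035, adjusted p = 0.000904). The groups were separate, and the member was called with each library left out in turn and with length offsets, where its log2 fold change was 0.15. It was the single member called with offsets for RSEM's effective length, a fit in which 1.85% of all tested genes were called higher and 1.44% lower. Over the 20 alternatives its adjusted p ran from 4.28e-07 to 0.0634, the last in limma on TPM.

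CYC1, the cytochrome c1 that hands electrons to cytochrome c, was at 290.1, 293 and 305 CPM in shControl and at 319, 333 and 312 in shSTBD1 (log2 fold change 0.12, SE 0.034, adjusted p = 0.0236). The small subunits UQCR10 (0.17, SE 0.053, adjusted p = 0.0338) and UQCRQ (0.13, SE 0.041, adjusted p = 0.039) were called as well. None of these 3 was called with length offsets. UQCRH, the hinge protein, had the highest TPM of the complex, with 682 ± 41.6 in shControl and 713 ± 21.2 in shSTBD1, and was not called (0.077, SE 0.033, adjusted p = 0.127). Its near copy UQCRHL lay between 1.53 and 2.16 CPM with overlapping groups.

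The large core subunits of complex III did not pass the test with all libraries and no offsets. UQCRC1 was at 265, 252 and 251 CPM in shControl and at 247, 243 and 245 in shSTBD1, lower in every shSTBD1 library (log2 fold change -0.065, SE 0.032, adjusted p = 0.185). With length offsets it was called lower, at -0.12, with an adjusted p of 0.0316 and a range of 0.0174 to 0.523 over the alternatives. UQCRC2 was at 189, 190.0 and 192 CPM against 195, 194 and 193 (0.030, SE 0.030, adjusted p = 0.557). UQCRFS1, the Rieske iron-sulfur protein, was at 119.8, 130.0 and 123 CPM against 119.6, 123 and 122 (-0.033, SE 0.037, adjusted p = 0.597).

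In complex V, the ATP synthase, 6 of 18 tested members were called higher, beside 8.22% of all tested genes. All 6 lay outside the catalytic head. The count was 4 without shControl replicate 1, beside 8.40% of all tested genes called higher, and 2 with length offsets, beside 7.88%. It was 3 without shSTBD1 replicate 2 or 3, beside 4.96% and 5.20%. The 12 tested subunits of the stalk and the membrane part were all above 0, with 5 called and a median log2 fold change of 0.12. ATP5MK (ENSG00000173915, chr10:103389041-103396492, minus strand), a small membrane subunit tied to the dimers of the enzyme, had the highest TPM of the complex, with 898 ± 136 in shControl and 1099 ± 29.8 in shSTBD1 (SD, n = 3). In CPM it was at 68.6, 82.3 and 80.7 against 92.9, 95.4 and 93.6, with a log2 fold change of 0.28 (SE 0.053, adjusted p = 0.00171). Without shControl replicate 1 the log2 fold change was 0.20, with length offsets it was 0.16, and it was called in both.

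ATP5PO (ENSG00000241837, chr21:33903453-33915814, minus strand) encodes the stalk protein that gives the enzyme its oligomycin sensitivity. Its values were 118, 123 and 124 CPM in shControl and 136.1, 136.1 and 137 in shSTBD1, with a log2 fold change of 0.16 (SE 0.033, adjusted p = 0.0033). ATP5ME, a membrane subunit, was at 35.4, 36.7 and 35.8 CPM against 38.1, 43.0 and 45.1 (0.23, SE 0.060, adjusted p = 0.0154). ATP5MF was called with a log2 fold change of 0.14 (SE 0.042, adjusted p = 0.0307). Of these 3, only ATP5PO was called with length offsets.

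The 3 genes for the proton-carrying c subunit encode the same mature protein. ATP5MC1 was at 61.7, 67.2 and 70.5 CPM in shControl and at 70.5, 74.6 and 77.5 in shSTBD1 (log2 fold change 0.16, SE 0.050, adjusted p = 0.0377). ATP5MC2 was at 67.5, 74.2 and 72.5 CPM against 71.9, 75.8 and 80.2 (0.090, SE 0.047, adjusted p = 0.218), and ATP5MC3 at 196, 208 and 197 against 205, 215 and 213 (0.076, SE 0.034, adjusted p = 0.141). All were above 0, and only ATP5MC1 was called. It was called neither with length offsets nor without shControl replicate 1. In TPM its groups overlapped, and with effective length offsets its log2 fold change was 0.068.

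ATP5IF1, the inhibitor that blocks the synthase from running backwards, was at 57.2, 56.5 and 59.3 CPM in shControl and at 62.7, 68.8 and 68.2 in shSTBD1. The groups were separate, and shControl replicate 1 was not the lowest library. The log2 fold change was 0.21 (SE 0.045, adjusted p = 0.0048) and was 0.20 without shControl replicate 1. It was called with each library left out in turn and not with length offsets, where it was 0.11.

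None of the 5 subunits of the F1 head, where ATP is made, was called higher. With 8.22% of all tested genes called higher, a count of 0 among 5 does not set the head apart. The median length of these 5 was 1766 bases, against 638 in the stalk and membrane part, so the 2 parts also differ in length. With length offsets the median log2 fold changes were -0.0080 in the head and 0.013 in the stalk and membrane part. ATP5F1B, the catalytic beta subunit, had the highest CPM of all members, with 1088, 1113 and 1118 in shControl and 1135, 1153 and 1124 in shSTBD1 (log2 fold change 0.040, SE 0.029, adjusted p = 0.392). ATP5F1A, the alpha subunit, was at 591, 613 and 609 CPM against 612, 609 and 599.9 (0.0064, SE 0.030, adjusted p = 0.918). ATP5F1C, the gamma subunit of the rotor, had the lowest log2 fold change of all tested members at -0.078 (SE 0.036, adjusted p = 0.16). With length offsets it was called lower, at -0.14 with an adjusted p of 0.00751 and a range of 0.00631 to 0.449 over the alternatives.

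Complex I, the NADH dehydrogenase, had the most members and the smallest share of calls, with 9 of 36 higher. This stood beside 8.22% of all tested genes called higher, and the median log2 fold change of the complex was 0.082. Of its 29 accessory subunits 8 were called, and of its 7 nuclear core subunits 1 was called. With length offsets 0 of the 36 were called higher in edgeR, and 1, NDUFV1, was called lower. The shares of all tested genes in that fit were 7.88% and 7.66%. Without shControl replicate 1, 5 of the 36 were called higher, beside 8.40% of all tested genes. The count was 3 without shSTBD1 replicate 3 and 1 without shSTBD1 replicate 2, beside 5.20% and 4.96%. It was 5 without shSTBD1 replicate 1 and 6 without shControl replicate 3, with no share of all tested genes taken.

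NDUFB10 (ENSG00000140990, chr16:1959538-1961975, plus strand), an accessory subunit of the membrane arm, had the smallest p of complex I. It was at 86.1, 86.5 and 86.8 CPM in shControl and at 94.2, 104 and 99.2 in shSTBD1. In this gene shControl replicate 1 lay within 1 CPM of the other controls, and the log2 fold change of 0.20 (SE 0.040, adjusted p = 0.00268) was 0.20 without it as well. With length offsets it was 0.11 and not called, at an adjusted p of 0.0518, with a range of 3.74e-05 to 0.0757 over the alternatives.

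NDUFV2, the core subunit of the NADH-oxidising module that carries an iron-sulfur cluster, was at 69.9, 78.8 and 79.2 CPM in shControl and at 85.8, 86.5 and 85.4 in shSTBD1 (log2 fold change 0.18, SE 0.046, adjusted p = 0.0138). The accessory subunits NDUFB9 (0.13, SE 0.033, adjusted p = 0.0158), NDUFC2 (0.14, SE 0.039, adjusted p = 0.0214), NDUFS5 (0.12, SE 0.034, adjusted p = 0.0245) and NDUFB4 (0.18, SE 0.054, adjusted p = 0.0287) followed, each with separate groups. NDUFS5 had the highest TPM of the complex, with 664 ± 34.5 in shControl and 716 ± 11.3 in shSTBD1 (SD, n = 3). The remaining called members, NDUFA1, NDUFB1 and NDUFA11, had log2 fold changes from 0.15 to 0.31, and the CPM of the groups overlapped for NDUFA1 and NDUFB1. NDUFB4, NDUFA1, NDUFB1 and NDUFA11 were not called without shControl replicate 1, where NDUFB4 stood at 0.11 and NDUFA11 at 0.085.

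Most catalytic subunits on the matrix side of complex I did not pass the test. Of the 7 nuclear core subunits 4 were above 0 and 3 below, with a median log2 fold change of 0.087. The lowest values were those of NDUFS1 and NDUFV1. NDUFS1, the largest core subunit, was at 138, 134 and 130.2 CPM in shControl and at 123, 130.3 and 128 in shSTBD1 (log2 fold change -0.075, SE 0.036, adjusted p = 0.17). Its direction turned with the estimated transcript length. In TPM it was at 58.8 ± 5.35 in shControl and 60.2 ± 2.04 in shSTBD1, and with effective length offsets the log2 fold change was 0.044. NDUFV1, which binds NADH and FMN, was at 136, 144 and 145 CPM against 132, 138 and 134 (-0.070, SE 0.036, adjusted p = 0.198). It was called lower with length offsets (-0.11, adjusted p = 0.0188) and without shControl replicate 1 (-0.099, adjusted p = 0.0318), with a range of 0.00673 to 0.444 over the alternatives.

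Over complexes I and III and the F1 head together, 2 of 16 core subunits (12.5%) were called higher, NDUFV2 and CYC1. This count lies near the 8.22% of all tested genes, and the median log2 fold change of the 16 core subunits was 0.035. Their median length was 1264 bases, above that of the accessory subunits of complex I at 706, so that core and accessory subunits also differ in length. Within complex I the median was 0.087 for the 7 core subunits and 0.081 for the 29 accessory ones. Within complex III it was -0.0016 for the 4 core subunits and 0.13 for the 6 accessory ones. With length offsets 0 of the 16 were called higher and 3 lower, beside 7.88% and 7.66% of all tested genes. Their median was -0.0050. The accessory subunits of complex I then had a median of 0.012 with 0 of 29 called higher, and its core subunits had a median of 0.024. Complex IV had the highest median of the complexes in all 4 fits shown in the plot by complex, and its median of 0.18 fell to 0.083 with length offsets and without shControl replicate 1.

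**Figure D3:**
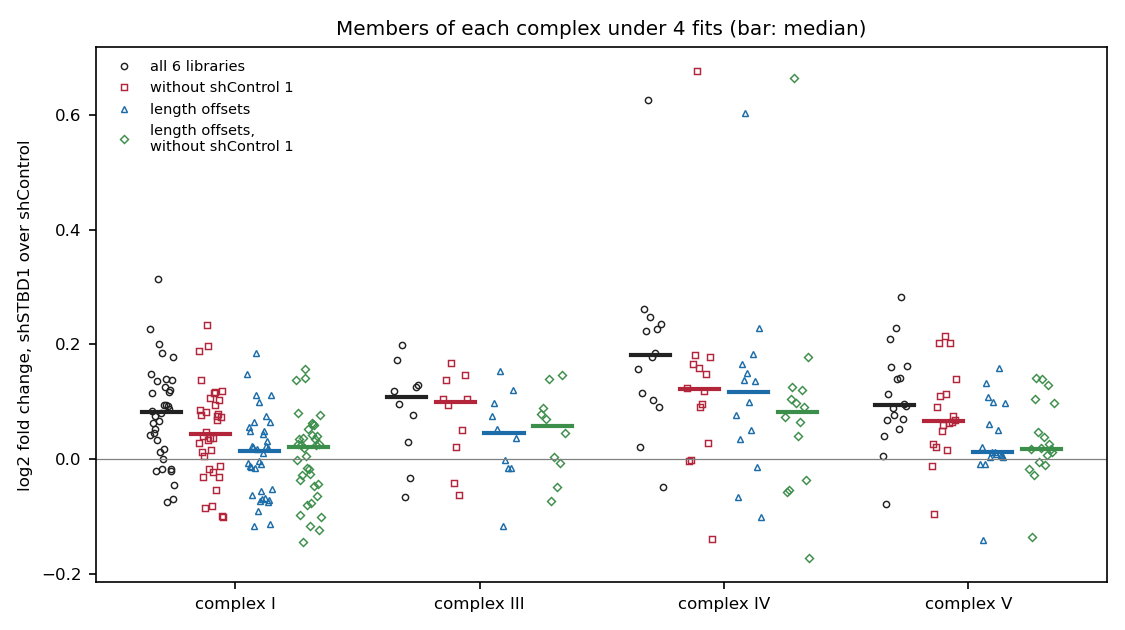
Log2 fold change of shSTBD1 over shControl (vertical axis) of each tested member, by complex, in the fit of all 6 libraries, without shControl replicate 1, with length offsets and with both changes, with a bar at each median. The medians of complexes I and V lie at or below 0.022 in both fits with length offsets, and those of complex IV at 0.12 and 0.083.

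The read-through gene ATP5MF-PTCD1 was at 18.5, 13.99 and 17.3 CPM in shControl and at 20.6, 18.9 and 21.5 in shSTBD1 (log2 fold change 0.30, SE 0.091, adjusted p = 0.0355). Its counts were the least certain of the tested members, with an RSEM posterior standard deviation of 5.81% of the count, since it shares exons with ATP5MF and PTCD1. No other tested member exceeded 5%. NDUFC2-KCTD14 had between 0 and 14.5 expected counts per library and was not tested, nor was ATP5MGL, with at most 3.

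In TPM, the members together stood at 17167, 19795 and 19465 in shControl and at 20199, 20543 and 20291 in shSTBD1. The means of 18810.0 ± 1430.0 and 20340.0 ± 178 (SD, n = 3) differed by 8.16%, and the groups did not overlap. Summed CPM differed by 6.27%. Without shControl replicate 1 the differences were 3.64% in TPM and 4.34% in CPM. The TPM total is shared with the mitochondrially encoded subunits. These held 179300, 148450 and 150310 TPM in shControl and 147630, 137020 and 141900 in shSTBD1, and their part in the sums was not tested. With all libraries, the TPM of complex I differed by 6.61%, of complex III by 5.20% and of complex V by 8.04%, and the groups overlapped in complex III. RSEM's effective length of the members had a median log2 ratio between the groups of -0.010, and ran from -0.20 in NDUFA3 to 0.14 in ATP5MG.

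Some subunits encoded in the mitochondrial genome were lower in shSTBD1. Of the 13 genes, 0 were called higher and 6 lower, beside 8.22% and 7.54% of all tested genes. The median log2 fold change was -0.19, and 1 gene, MT-ND2, was above 0 at 0.087. With length offsets 0 were called higher and 7 lower, beside 7.88% and 7.66%, with a median of -0.29. In the fit without offsets MT-CO1, the catalytic subunit of complex IV, fell by 0.33 (SE 0.062, adjusted p = 0.00152). MT-CO3, MT-CYB, MT-ATP6, MT-ND4 and MT-ND4L also fell, by between 0.16 and 0.27 on the log2 scale. Their summed share of the expected counts was 6.76%, 5.54% and 5.62% in shControl and 5.46%, 5.13% and 5.30% in shSTBD1, so that the library with the lowest nuclear members had the highest mitochondrial share. Without shControl replicate 1 the median was -0.058, and 3 of the 13 genes, MT-ND1, MT-ND2 and MT-CO2, were called higher and 6 lower. The shares of all tested genes in that fit were 8.40% and 7.84%. The part of this share in the nuclear members' differences was not tested.

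Of 71 other nuclear genes around the complexes, in 8 lists, 6 were called higher (8.45%) and 2 lower (2.82%), beside the 8.22% and 7.54% of all tested genes. The 4 genes of complex II, SDHA, SDHB, SDHC and SDHD, had log2 fold changes of -0.032, 0.11, -0.022 and -0.018, and none was called. Neither was CYCS, cytochrome c, at 0.013, nor NDUFAB1, the acyl carrier protein that sits in complex I, at 0.12. Of 16 assembly factors of complex I, 2 were called higher, NDUFAF3 (0.25, SE 0.060, adjusted p = 0.011) and TIMMDC1 (0.15, SE 0.044, adjusted p = 0.0263), of which NDUFAF3 was still called with length offsets. Of 23 assembly factors of complex IV, 4 were called higher and 1 lower. Those higher were the copper chaperone COX17 (0.25), COA4 (0.24), COX16 (0.19) and PET100 (0.31), and COA7 fell by 0.12. With length offsets COX17, COX16 and PET100 lost their call, and without shControl replicate 1 COX16, PET100 and COA7 did. Of 6 factors of complex III, 0 were called higher and TTC19 fell by 0.15. None of 4 factors of complex II, of 5 of complex V, or of 11 tested regulators of respiratory gene transcription was called in edgeR, and with length offsets 1 regulator, GABPA, was called higher at 0.14.

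Nuclear respiratory genes are known targets of the transcription factors NRF1, of the ETS family (GABPA) and YY1, so the promoters were searched for their core letters. RefSeq promoters (GRCh38.p14, from 250 bases before to 50 after the start) were matched by symbol for 67 of the 86 members. The NRF1 letters, GCGCA and GCGC with any 1 base between them on either strand, were in 15 of these 67 windows (22.4%) and in 6.28% of all 27305 windows. The ETS letters CCGGAAGT were in 13.4% of the members' windows against 4.44% of all, and the YY1 letters AAGATGGCG in 10.4% against 1.85%. Split by the test, the NRF1 letters were in 5 of 20 windows of members called higher and in 9 of 43 of members tested and not called. For the ETS letters these counts were 2 of 20 and 7 of 43, and for the YY1 letters 0 of 20 and 7 of 43. A match of letters is a description and not a binding site, and no test was made of these shares.

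Matches are shown for 5 members that were called higher and, as a contrast, for UQCRC1 and ATP5F1C, which had log2 fold changes below 0. Each run is 28 bases, read 5′ to 3′ on the strand of the gene, with the matched letters in capitals. A match on the opposite strand appears as the reverse complement of the letters given above. The positions are on GRCh38.p14: NDUFB4 at chr3:120596168-120596195 on the plus strand, ATP5PO at chr21:33915810-33915837 on the minus strand, ATP5ME at chr4:674477-674504 on the minus strand, ATP5MK at chr10:103396618-103396645 on the minus strand, UQCRQ at chr5:132866578-132866605 on the plus strand, UQCRC1 at chr3:48609675-48609702 on the minus strand and ATP5F1C at chr10:7788146-7788173 on the plus strand. The NRF1 letters stand in all but ATP5MK and UQCRQ, which hold the ETS letters.
NDUFB4: gagcacttcGCGCATGCGCatatcaccg
ATP5PO: cgccaacgcGCGCGTGCGCccttgcgcg
ATP5ME: gcagcaactGCGCAGGCGCagccgatga
ATP5MK: tgcaattcttCCGGAAGTgtgggcgggc
UQCRQ: atggtatctcCCGGAAGTtacctcacga
UQCRC1: tacggtactGCGCCTGCGCcgcgaccgc
ATP5F1C: ggagcttcgGCGCATGCGCgctgaggcc
All 7 runs lie before the RefSeq start of their window. The GENCODE gene bounds used for the members begin further upstream for UQCRC1, ATP5F1C and ATP5PO, so that these runs lie wholly or partly inside the gene there. The members that were called and those that were not both include genes with the NRF1 letters and genes with the ETS letters.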

How the data were processed

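The members and gene lists were chosen with earlier results of these data known. The authors used STAR 2.7.1a (hg38, Ensembl release 93) for alignment and RSEM 1.3.1 for abundance. For each gene and library they deposited an unnormalized expected count and a TPM value, scaled to 1 total per library. Lengths, effective lengths and posterior standard deviations are also as deposited. Whether counting used strand is not given in the sources used here. Symbols and gene types came from GENCODE release 44.

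Expected counts were rounded, filtered by filterByExpr, scaled by TMM and compared with edgeR 4.0.16 (R 4.3.3; glmQLFit, glmQLFTest), 3 libraries against 3, without a covariate. Standard errors came from the fold change and the F statistic. Alternatives used DESeq2 1.42.0, limma 3.58.1 on log2(TPM + 1) or log2(TPM + 0.1), library size, upper quartile, other count filters, unrounded counts, offsets for effective length, GC content or length (a lowess trend per library, span 0.3), the replicate number as a block, and each library left out.

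Totals of 17689097 to 21668274 expected counts set the counting precision of each value. The genes named were all called members (the 20 with the smallest p with values), the highest TPM and fixed core subunits of each complex, paralog sets, ATP5IF1, STBD1, untested or read-sharing members, complex II, CYCS, NDUFAB1 and called genes of the other lists. The scripts were tested on simulated data. Of complex I, 1 member is counted but not reported by name here.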

Additional observations from a re-analysis of the deposited data

How the results depend on the processing

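The number of members called higher was 29 in the main analysis, beside 8.22% of all tested genes. It was 19 with DESeq2, beside 7.12% of the genes given an adjusted p, and 11 with gene length offsets, beside 7.88%. It was 1 when offsets held the effective length and 0 in limma on log2(TPM + 1), beside 1.85% and 1.14%. In limma on log2(TPM + 0.1) it was also 0, with no share of all tested genes taken. It ran from 10 to 26 when 1 library was left out. It was 10 without shSTBD1 replicate 2 and 15 without shSTBD1 replicate 3, beside 4.96% and 5.20%. Without shControl replicate 1 it was 20, beside 8.40%. For the fits without shControl replicate 2 or 3 or shSTBD1 replicate 1 no share was taken. It was 14 with length offsets and without shControl replicate 1, beside 7.92%, a choice made after seeing the data. The number called lower was 0 in the main analysis and 3 with length offsets, beside 7.54% and 7.66%. It was 2 in that added fit, beside 7.37%, and 0 to 1 with 1 library left out. The median log2 fold change of 0.096 was 0.024 with length offsets and 0.027 in the added fit, and ran from 0.076 to 0.12 with 1 library left out. The members' excess over their length band, 0.021, was 0.051 with the band from the 10th to the 90th percentile of length, and ran from 0.0062 to 0.045 with 1 library left out. The cause of these changes was not tested. No called member changed its direction under any alternative, but the calls and the alternatives rest on the same libraries. Samples with the same number deviated from their group means with correlations of 0.071, 0.068 and -0.0084, so the numbers were not taken as pairs. With the replicate block 31 members were called higher and 0 lower. With the block and length offsets 12 were called higher and 3 lower, with a median of 0.023. No share of all tested genes was taken for either fit. Depth limited most the members with the lowest CPM, COX6B2, UQCRHL and NDUFA4L2, whose standard errors were 0.19, 0.23 and 0.35.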
